A study of Zea mays with 10 samples.

Results

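The 5 genes umi11, prp4, chn1, pr5 and wip1 are maize genes named for pathogen attack or wounding, and their transcripts were measured here in stems that had received no treatment. They are 5 of the 1108 genes that the array annotation names, and each was read by 1 of the 1452 probe sets with a single gene name. The genes were picked by name. For umi11, prp4 and chn1 the pick was made with their high values in F7025 known, and for prp4 also its low value in F7033. How pr5 and wip1 came to be chosen is not known. All values of these genes in F7025, and all values of pr5 and wip1, are therefore given as a description without a test. No sequence of these genes was used here.

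The series profiled stem RNA of 5 inbred maize lines, stocks that breed nearly true after repeated selfing, in a study of maize cell walls. F7025 derives from Iodent crossed with F113bm3 and has yellow grain of the Flint-Dent type. F7033 derives from (Lorena × F252) × F252 and has yellow grain of the same type. F98902 derives from Iodent and is a Dent line, F2 derives from Lacaune and is a Flint line, and Cm484 derives from 200-2-1 and has Flint-Dent grain. Each line had 2 arrays, each made from 1 pool of 5 plants without treatment, and no line served as a treated or infected group. The labels do not say whether F7025 carries the bm3 mutation of its parent, nor how the pools of a line were kept apart, so a p-value here reflects how much pools vary, and part of that may be technical.

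Pathogenesis-related proteins are secreted or vacuolar proteins that plants make in quantity after infection or wounding, many of them also in healthy organs and at certain ages. They include enzymes that cut the walls of fungi, proteins that disturb fungal membranes, and inhibitors of the digestive enzymes of insects and microbes. In maize, umi11 takes its name from induction by the corn smut fungus Ustilago maydis, and the reference gene table gives it the synonym cyclotide, the name of a family of small cystine-knotted peptides. The table lists prp4 under the synonym PR-1, a family of secreted proteins used as a marker of the salicylic acid response in many plants. Chitinases such as chn1 cut chitin, a polymer of fungal walls and insect cuticles. PR-5 proteins such as pr5 resemble the sweet protein thaumatin, and several of them act on fungi. The gene wip1 encodes a wound-induced inhibitor of serine proteases of the Bowman-Birk type.

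Expression is given as the deposited log2 value, on which a step of 1 is a doubling. Values under 4 lie near the floor of the method and have no order, so a line whose mean lies under 4 is set to 4 for a fold, which is then written as "at least". Between 57.6% and 58.4% of the probe sets reached 4 on each array. The secondary-wall markers cesa10, cesa11, CesA12 and BM1 were bright on all 10 arrays, the dimmest at 9.49, which fits the stem label. The stem marker prcw1 was likewise bright in 4 lines but averaged 4.83 in F7033. All 4 photosynthetic markers were bright as well, with rbcS, the small subunit of the carbon-fixing enzyme, between 12.49 and 13.49. Over all probe sets, which are not independent of each other, the Pearson r between the arrays of 1 line was 0.986 or more, with F98902 lowest. These are whole stem extracts, in which fewer cells of a type and less RNA per cell cannot be told apart. Whether the probes match each line equally well, and whether each line carries the gene, was not tested. A low value in a line therefore need not mean less transcript of a matching gene.

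The 5 genes did not share 1 pattern over the lines. All 5 were high in F7025, while neither the next line nor the last was the same for all 5. By line mean F2 was the lowest for chn1, pr5 and wip1, F7033 was the lowest for prp4, and 3 lines lay at the floor for umi11. For wip1 the second F7033 array was under 4 as well, and the mean of F7033 was at least 1.21-fold that of F2. For chn1 the highest line mean was 8.36-fold the lowest. For the other 4 genes, whose lowest line lay under 4, it was at least 22.9-fold (umi11), at least 37.9-fold (prp4), at least 90-fold (pr5) and at least 34.8-fold (wip1), bounds that give no order. The F-test over the 5 lines called 8176 of 11067 tested probe sets (73.9%), so a difference among these lines was the usual state of a probe set.

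**Figure D1:**
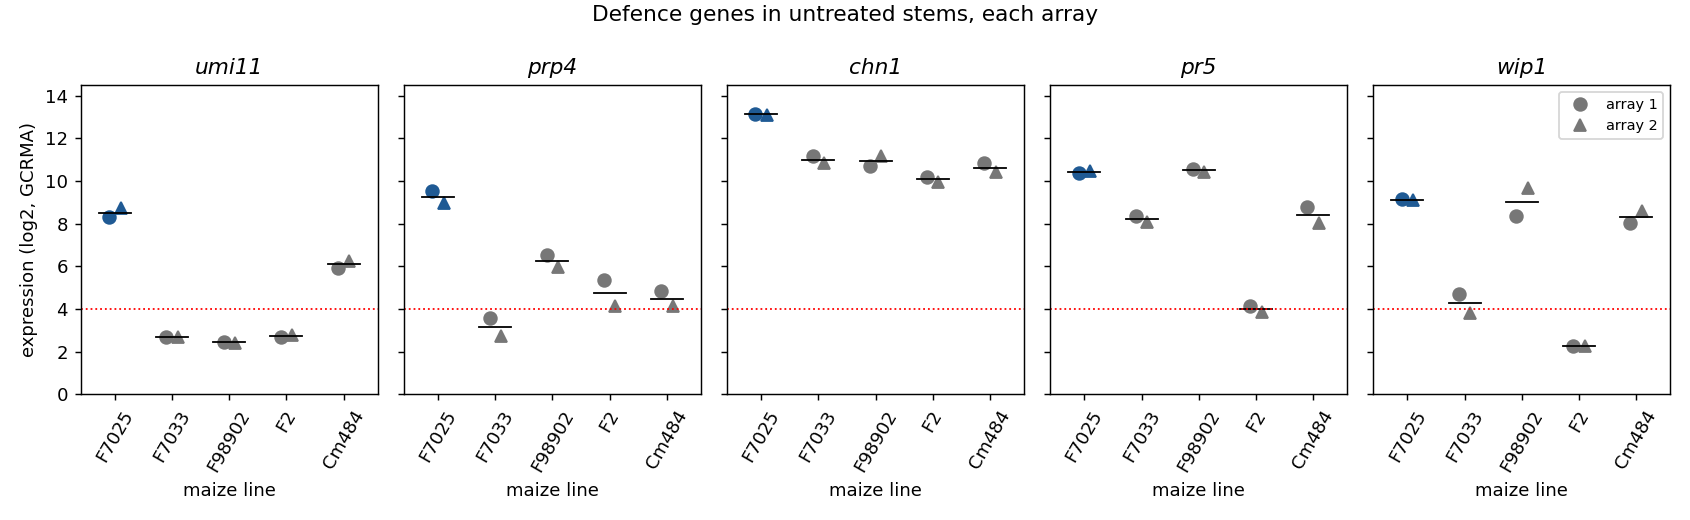
Expression of the 5 defence genes (log2 value on the vertical axis) in the 5 maize lines, with array 1 as a circle, array 2 as a triangle, the line mean as a bar and the level of 4 as a dotted line. F7025, in blue, lies above every other array for umi11, prp4 and chn1 but overlaps F98902 for pr5 and wip1. F2 has the lowest line mean for chn1, pr5 and wip1, though for wip1 array 2 of F7033 is also under 4.

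The smut-induced gene umi11 (LOC606488) was well above the floor in 2 of the 5 lines. Its log2 values were 8.30 and 8.74 in F7025, against 2.68 and 2.68 in F7033, 2.46 and 2.41 in F98902, 2.68 and 2.76 in F2, and 5.93 and 6.26 in Cm484. F7025 was the highest and Cm484 the next, without overlap, and the other 3 lines lay under 4 and have no order among them. Of the 11067 tested probe sets, 45 (0.407%) shared this on and off pattern over the lines. The pattern was read from umi11 itself, so the share is a description. The F7025 mean of 8.52 ± 0.31 was 5.37-fold that of Cm484 at 6.09 ± 0.24 (SD, n = 2 each) and at least 22.9-fold that of each of the other 3 lines. On the array, umi11 stood brighter than 78.7% and 82.9% of probe sets in F7025, and brighter than 53.5% and 56.1% in Cm484.

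Cm484 also stood apart from the 3 dim lines in the tests that leave F7025 out of the contrast. The limma contrast was -3.41 log2 for F7033 minus Cm484 (SE 0.19, adjusted p = 5.85e-06), -3.66 log2 for F98902 minus Cm484 (adjusted p = 3.85e-06) and -3.37 log2 for F2 minus Cm484 (adjusted p = 6.5e-06). Each of these 3 lines was thus at least 4.27-fold lower than Cm484. All 3 calls held with any single array left out. The same contrasts called 42.1%, 37.3% and 38.3% of all tested probe sets in either direction.

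The PR-1 gene prp4 (LOC542352) was also highest in F7025, but its other lines were graded rather than split into on and off. Its log2 values were 9.53 and 8.96 in F7025, 3.57 and 2.73 in F7033, 6.51 and 5.99 in F98902, 5.35 and 4.15 in F2, and 4.84 and 4.12 in Cm484. The order of the line means was F7025, F98902, F2, Cm484 and F7033, and only F2 and Cm484 overlapped. The F7025 mean of 9.24 ± 0.40 was 7.95-fold that of F98902 at 6.25 ± 0.37, 22.5-fold that of F2, 27.2-fold that of Cm484 and at least 37.9-fold that of F7033 at 3.15 ± 0.59 (SD, n = 2 each). The name of its probe set marks probes shared with similar transcripts, so its level may include those of related genes.

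Tests on prp4 were limited to the 3 pairs without F7025 and F7033. F98902 was higher than F2 by 1.50 log2 (SE 0.47, limma adjusted p = 0.034), or 2.83-fold, in a contrast that called 39.8% of tested probe sets. F98902 was higher than Cm484 by 1.77 log2, or 3.42-fold (limma adjusted p = 0.0188). F2 minus Cm484 was 0.27 log2 and did not pass (limma adjusted p = 0.696). Both calls depended on single pools. F98902 minus F2 gave limma adjusted p = 0.126 without the first F98902 array, 0.0552 without its second and 0.211 without the second F2 array, where the difference was 0.90 log2. F98902 minus Cm484 gave limma adjusted p = 0.0762 without the first F98902 array and 0.109 without the second Cm484 array. Without the 3 arrays made from 20 µg of RNA, the second ones of F98902, F2 and Cm484, limma adjusted p was 0.2 for F98902 minus F2 and 0.0947 for F98902 minus Cm484.

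In each of the 4 lines where prp4 was above the floor, the second pool had less of it than the first. The second minus the first array was -0.57 log2 in F7025 and -0.52 log2 in F98902, and it reached -1.2 log2 in F2 and -0.72 log2 in Cm484. In F7033 both arrays lay under 4 and have no order. The 4 gaps were larger than those of 77.8% (F98902) to 99.4% (F2) of tested probe sets. Of the 9232 probe sets at 4 or more on both arrays of these 4 lines, the second array was lower in all 4 for 791 (8.57%). It was lower by 0.5 log2 or more in all 4 for 8 (0.0867%), prp4 being 1 of the 8. The lines were those where prp4 was above the floor, and the 0.5 level, just under its smallest gap, was not planned. These shares are a description and do not measure how unusual prp4 is. The arrays with 20 µg of RNA were the second ones of 3 lines, whereas both F7025 arrays had 60 µg. The part of RNA amount in this gap was not tested.

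**Figure D2:**
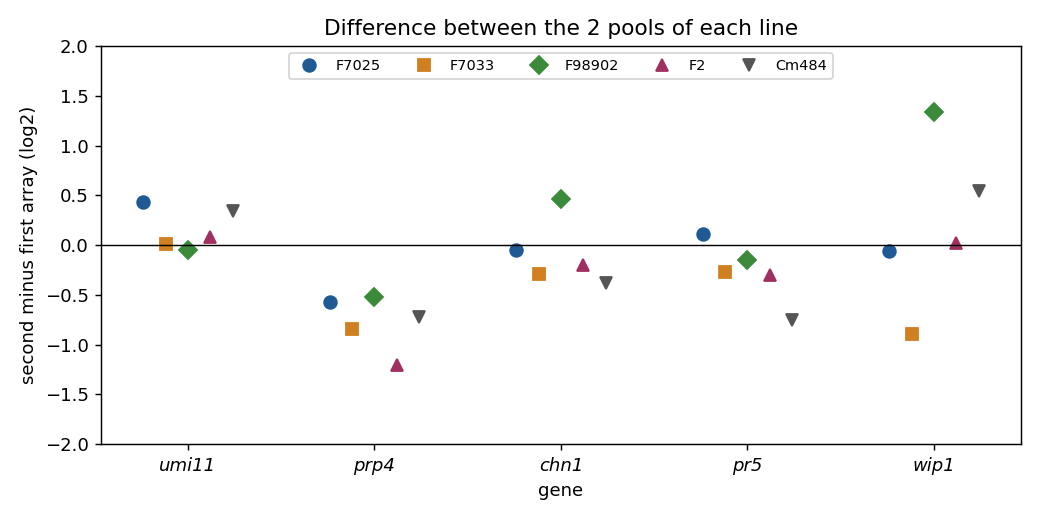
Difference between the 2 pools of each line (second minus first array, log2) for the 5 genes, with 1 symbol per line. For prp4 all lines lie below 0, from -0.52 to -1.2, though both F7033 values are under 4 and have no order, while the lines fall on both sides of 0 for the other genes, with wip1 spread from -0.89 in F7033 to 1.34 in F98902.

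The chitinase gene chn1 (LOC542525) was among the brightest probe sets in every line. Its log2 values were 13.16 and 13.11 in F7025, 11.15 and 10.86 in F7033, 10.71 and 11.17 in F98902, 10.17 and 9.97 in F2, and 10.82 and 10.44 in Cm484. F7025 lay 1.94 log2 above the highest array of any other line, F2 lay below all other arrays, and the ranges of F7033 and F98902, and of F98902 and Cm484, overlapped. It was brighter than 99.7% of probe sets on both F7025 arrays and brighter than 91.8% on its dimmest array, the second of F2. The F7025 mean of 13.14 ± 0.03 was 4.38-fold that of F7033 at 11.00 ± 0.21, 4.57-fold that of F98902 at 10.94 ± 0.33, 8.36-fold that of F2 at 10.07 ± 0.14 and 5.69-fold that of Cm484 at 10.63 ± 0.27 (SD, n = 2 each).

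Of the 6 pairs without F7025, 2 passed for chn1, both with F2 as the lower line. F7033 exceeded F2 by 0.93 log2, or 1.91-fold (limma adjusted p = 0.00609), in a contrast that called 37.2% of tested probe sets. F98902 exceeded F2 by 0.87 log2, or 1.83-fold (limma adjusted p = 0.0078). F2 minus Cm484 was -0.55 log2, just outside the threshold (limma adjusted p = 0.0506), and it passed in 3 of the 10 fits that leave out 1 array, at 0.0269 without the second F98902 array, 0.0273 without the first and 0.0434 without the second Cm484 array. In the other 7 it did not, and the difference was -0.36 log2 (limma adjusted p = 0.273) without the first Cm484 array. The other 3 differences were small: 0.06 log2 for F7033 minus F98902 (SE 0.19, limma adjusted p = 0.826, 42.8% of probe sets called), 0.38 log2 for F7033 minus Cm484 (limma adjusted p = 0.148) and 0.32 log2 for F98902 minus Cm484 (limma adjusted p = 0.229). F7033 minus F2 gave limma adjusted p = 0.053 without the first F7033 array and 0.0503 without the second F2 array. F98902 minus F2 gave 0.0599 without the second F2 array, and 0.54 log2 with 0.141 without the 3 arrays of 20 µg RNA.

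Over umi11, prp4 and chn1 together, 7 of the 12 tested pair differences passed. The contrasts concerned each called between 37.2% and 42.8% of all tested probe sets. The count was 4 without the second F2 array, and also 4 without the 3 arrays of 20 µg RNA. In both of those fits, every pair contrast also called a smaller share of all tested probe sets than with all arrays. The tested pairs share arrays and are not independent of each other. The plan also held the umi11 pairs among F7033, F98902 and F2. These were not tested, as both means of each pair lie under 4. They were left out for their values, so 7 of 12 is not a rate over all planned pairs.

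The thaumatin-like gene pr5 (LOC542720) was high in both F7025 and F98902. Its log2 values were 10.37 and 10.47 in F7025, 8.36 and 8.09 in F7033, 10.57 and 10.42 in F98902, 4.15 and 3.84 in F2, and 8.78 and 8.03 in Cm484. F7025 and F98902 overlapped at the top, F7033 and Cm484 overlapped in the middle, and F2 lay at the floor, below every other array. F7025 averaged 10.42 ± 0.07, F98902 10.49 ± 0.11 and F2 3.99 ± 0.21 (SD, n = 2 each). F2 was therefore at least 85.7-fold below F7025, at least 90-fold below F98902, at least 21.2-fold below Cm484 and at least 18.7-fold below F7033. F7025 was 4.57-fold above F7033 and 4.05-fold above Cm484.

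The wound-induced inhibitor wip1 (LOC542729) was high in 3 lines and low in 2. Its log2 values were 9.15 and 9.09 in F7025, 4.72 and 3.83 in F7033, 8.35 and 9.69 in F98902, 2.25 and 2.27 in F2, and 8.05 and 8.59 in Cm484. F7025 and Cm484 each overlapped F98902, whose 2 pools differed by 1.34 log2, more than 96.6% of tested probe sets in that line. F7033, with 1 array on each side of 4, lay below these 3 lines, and both F2 arrays lay under 4. The F7025 mean of 9.12 ± 0.04 was 1.07-fold that of F98902, 1.74-fold that of Cm484, 28.7-fold that of F7033 and at least 34.8-fold that of F2. The pattern read from wip1 had F7025, F98902 and Cm484 on, F2 off and F7033 with 1 array on each side of 4. It was shared by 9 of the tested probe sets (0.0813%), wip1 included, a share given as a description.

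Across the 10 arrays the 5 genes correlated positively with each other, given here as a description since arrays of a line are not independent. The closest pair was pr5 and wip1 (Pearson r = 0.88), followed by prp4 and chn1 (0.81) and umi11 and chn1 (0.76), and the loosest was umi11 and pr5 (0.41). The high F7025 values that chose umi11, prp4 and chn1 enter these coefficients. In the reference gene table umi11 and prp4 lie on the same chromosome with 6 genes between them, 2 of them protein coding and 0 named on the array, and the other members lie on other chromosomes. The correlation of umi11 with prp4 was 0.67, and they differed in the line that came second.

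Among 809 other named genes, those with the most similar patterns over the 10 arrays differed from member to member. For umi11, 12 genes reached r = 0.9, the closest being sum1 (0.975), the pyruvate dehydrogenase kinase gene PDK2 (0.969), HK1 (0.956), GalDH (0.941) and the endoplasmic reticulum chaperone gene bip2 (0.939). PDK2 had line means of 7.97 in F7025 and 7.12 in Cm484, against 5.25 (F2) to 5.87 (F7033) elsewhere, so it shared the F7025 and Cm484 maxima but was not at the floor elsewhere. For prp4 the closest were LOC100037814 (0.954), LOC542168 (0.914), the tubulin gene tub5 (0.879), a calmodulin gene (0.876) and the enolase gene eno1 (0.858). LOC100037814 followed chn1 too (0.901), after the alternative oxidase gene aox2 (0.935) and hsp22 (0.911), and before Pti1d (0.887) and pdi8 (0.858). LOC100037814 averaged 8.38 in F7025 and between 4.31 (F7033) and 5.83 (F98902) in the other lines. The gene aox2 was among the compared genes only through its F7025 arrays and averaged 2.29 to 2.34 elsewhere. Its coefficient with chn1 therefore restates that both are high in F7025. The high F7025 values that chose umi11, prp4 and chn1 enter all coefficients of these 3 genes, which are a description.

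The gene closest to pr5 was ivr2, a soluble invertase that splits sucrose (r = 0.98). Its line means were 10.66 in F7025 and 10.35 in F98902, then 8.54 in F7033, 7.78 in Cm484 and 3.71 in F2, with the first pair on top and F2 under 4 as for pr5. The next were LOC542114 (0.944), the spermidine synthase gene spds2 (0.936), LOC542505 (0.932) and the vacuolar aquaporin gene TIP2-1 (0.916). Of these, spds2 and TIP2-1 were also under 4 in F2, at 2.48 and 2.80. In the other lines they varied little, spds2 from 8.79 (F7033) to 9.41 (F98902) and TIP2-1 from 7.82 (F7033) to 8.58 (Cm484). Their coefficients with pr5 therefore rest mainly on F2. For wip1 the closest were LOC542607 (0.955), LOC542631 (0.935), the NIP-type aquaporin gene NIP2-2 (0.924), vdac1a (0.899) and the cellulose synthase gene CesA-1 (0.878). NIP2-2 averaged 11.54 in F7025, 10.60 in Cm484 and 10.01 in F98902, above 7.52 in F7033 and 6.93 in F2, the same 2 low lines as wip1. The coefficients measure shape and not size, and the CesA-1 means covered only 9.51 to 10.23.

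**Figure D3:**
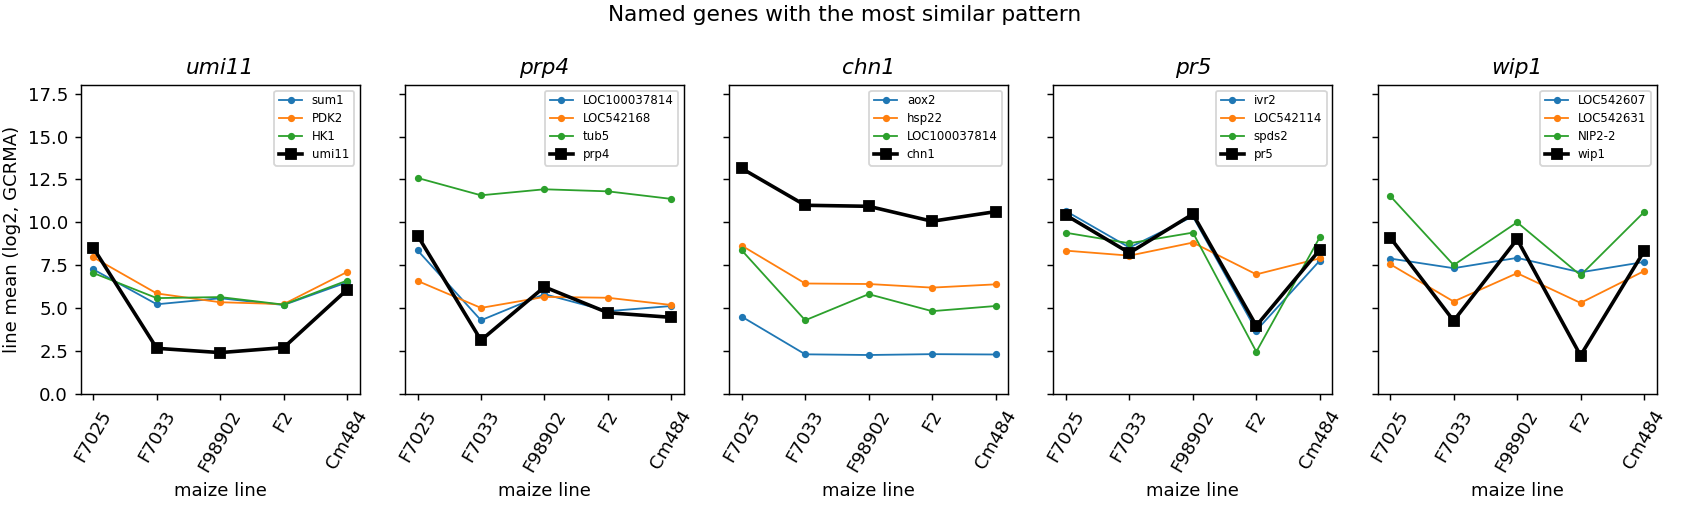
Line means (log2) of each defence gene, in black, and of the 3 named genes whose pattern over the 10 arrays was most similar, in colour. The curve of ivr2 runs close to that of pr5 in every line, while tub5 beside prp4 and LOC542607 beside wip1 share the shape with a smaller range.

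The array names 24 other genes from the defence and wounding list drawn up for this comparison, of which 18 reached a log2 value of 4 on 2 or more arrays. The list is broad. The tested genes include the kinases mpk6, MCK1, CDPK, CDPK1 and CDPK2 and the alternative oxidases aox1 and aox2, while only prp2 and sip1 are pathogenesis-related or thaumatin-like. Of these 18, aox2 passed that filter only through its F7025 arrays and rip2 only through its F2 arrays, so each had to differ there. The F-test called 14 of the 18 (77.8%), against 73.9% of all tested probe sets, and 12 of the 16 without aox2 and rip2, so as a group they varied among lines about as often as other genes. In F7025 minus the mean of the other lines, 7 were higher (38.9%, against 16.6% of tested probe sets), 2 were lower (11.1%, against 20.8%) and 9 did not pass. Without aox2 and rip2, 6 of 16 were higher (37.5%), against 16.8% of the 10722 probe sets that reached 4 in more than 1 line. The topic and the list were chosen with earlier results of these data known, among them the high F7025 values of umi11, prp4 and chn1. The F7025 shares of the list are therefore a description and no independent support. The median difference of the 18 was 0.07 log2 and that of all tested probe sets -0.05. The 7 higher genes include psei1 and cpi2, whose signals may not be separate. They also include tps6, whose call was lost in several fits that leave out 1 array. In F7033, 4 were higher (22.2%, background 22.2%) and 6 lower (33.3%, background 23.2%), with a median of -0.14 against -0.02 for all tested probe sets. In F98902, 4 were higher (22.2%, background 20.7%) and 4 lower (22.2%, background 23.3%), with a median of -0.25 against -0.04. In F2, 4 were higher (22.2%, background 25.4%) and 7 lower (38.9%, background 17.7%), with a median of -0.07 against 0.10, and without aox2 and rip2 the counts were 3 and 6 of 16. In Cm484, 3 were higher (16.7%, background 18.4%) and 2 lower (11.1%, background 18.5%), with a median of -0.16 against 0.00. The contrasts of the 5 lines share all arrays, so a gene high in 1 line counts as low in others: aox2 is among the lower genes of F7033, F98902, F2 and Cm484 while it lies under 4 in all 4 of them.

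**Figure D4:**
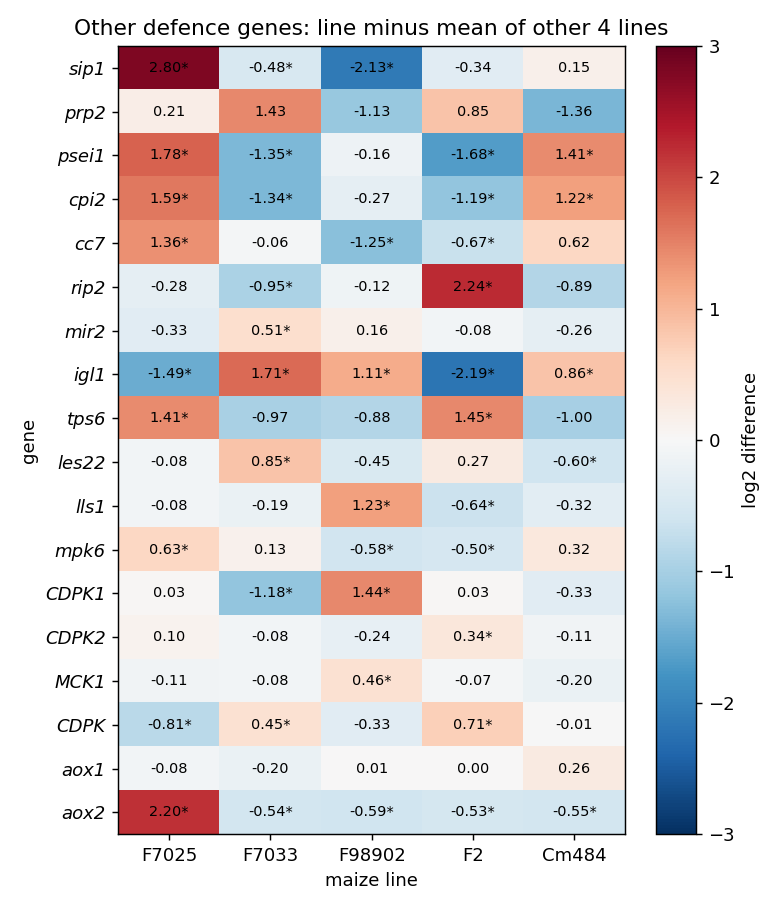
Log2 difference of each line from the mean of the other 4 lines for the 18 other defence genes, with lines across and genes down, red for higher, blue for lower and an asterisk for a limma adjusted p under the threshold. The F7025 column holds 7 genes called higher, among them aox2, which was tested only because it is bright there, and 2 called lower, and igl1 is called in all 5 lines, lower in F7025 and F2 and higher in the other 3.

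Of the other pathogenesis-related and thaumatin-like genes, sip1, which the reference table also lists as Zlp, a name for zeamatin-like proteins, was higher in F7025. Its log2 values were 7.32 and 7.20 in F7025, while the other 8 arrays lay between 3.23 and 5.20. The difference was 2.80 log2 (SE 0.14, limma adjusted p = 3.37e-06), or at least 6.18-fold, whereas in F98902 it was lower by at least 2.73-fold (-2.13 log2, limma adjusted p = 1.07e-05). Its second probe set gave a smaller F7025 difference of 0.93 log2. The gene prp2 did not pass in any line, and its pools disagreed, with 7.03 and 4.22 in F7025.

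All 3 tested cystatin genes, whose products inhibit cysteine proteases such as those of insect guts, were higher in F7025. The values of psei1 were 14.00 and 14.09 in F7025, above the 11.25 to 13.87 of the other arrays, a difference of 1.78 log2 (3.43-fold, limma adjusted p = 9.61e-06). Those of cpi2 were 12.31 and 12.30 in F7025, with a difference of 1.59 log2 (3-fold, limma adjusted p = 6.53e-05), and those of cc7 were 9.02 and 8.51, with a difference of 1.36 log2 (2.56-fold, limma adjusted p = 0.00219).

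Cm484 was the next line after F7025 for psei1 and cpi2. In Cm484, psei1 averaged 13.75 ± 0.17 and was higher than the other lines by 1.41 log2 (limma adjusted p = 3.22e-05), and cpi2 averaged 12.02 ± 0.20 and was higher by 1.22 log2 (limma adjusted p = 0.00027; SD, n = 2 each). Both were lower in F7033, at -1.35 log2 for psei1 and -1.34 log2 for cpi2. They were also lower in F2, at -1.68 log2 for psei1 and -1.19 log2 for cpi2, with the largest of the 4 limma adjusted p at 0.00023. In F98902 cc7 was lower, at -1.25 log2 (limma adjusted p = 0.00269). Probe sets of psei1 and cpi2 carry the same cluster number in their names, so their signals may not be separate. A second probe set of psei1 gave another order, with 0.48 log2 in F7025 and 1.55 log2 in F98902.

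Genes of volatile synthesis went different ways. The gene igl1, whose enzyme releases free indole, had 5.91 and 6.09 in F7025 and was lower there at -1.49 log2 (2.81-fold, limma adjusted p = 5.51e-05). It was lower still in F2 (-2.19 log2, 4.57-fold, limma adjusted p = 5e-06) and higher in F7033 (1.71 log2, 3.28-fold, limma adjusted p = 1.74e-05), F98902 (1.11 log2) and Cm484 (0.86 log2). The terpene synthase gene tps6 was higher in F7025 by 1.41 log2 (2.66-fold, limma adjusted p = 0.0374) and in F2 by 1.45 log2 (limma adjusted p = 0.0301). The F7025 call of tps6 was lost without either F7025 array (limma adjusted p = 0.124 and 0.173), without either F2 array (0.0536 and 0.0703), without the second F98902 array (0.0506) and without the second Cm484 array (0.0509). Its F2 call was lost without either F2 array (0.214 and 0.0916) and without the first F7025 array (0.0523). With array weights the F7025 call was lost as well (0.11), and with no filter both were (0.0745 in F7025 and 0.0607 in F2).

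The remaining calls were spread over the lines. The alternative oxidase gene aox2, for a mitochondrial enzyme that bypasses part of the respiratory chain, had 4.55 and 4.48 in F7025 against 2.28 to 2.36 on all other arrays, at least 1.43-fold higher. It was in the test only through those 2 arrays, so no p is given for it, and it was not tested without either of them or with the filter at 6. The kinase gene mpk6 was higher in F7025 by 0.63 log2 (1.55-fold, limma adjusted p = 0.0074). The calcium-dependent kinase gene LOC606407, shown as CDPK in the plot of the other defence genes, was lower there at -0.81 log2 (1.75-fold, limma adjusted p = 0.00292). It was higher in F2 by 0.71 log2 (limma adjusted p = 0.00475). Its other probe sets gave smaller F7025 differences, -0.60 and -0.29 log2, and 0.77 and 1.05 log2 in F2. The one at -0.29 was lowest in Cm484, at -0.89 log2. In F2 the LOC606407 call was lost without the second F2 array (limma adjusted p = 0.0801). Another calcium-dependent kinase gene, CDPK1, was higher in F98902 by 1.44 log2 (limma adjusted p = 0.00194) and lower in F7033 at -1.18 log2 (limma adjusted p = 0.00516, and 0.059 without the first F7033 array).

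The ribosome-inactivating protein gene rip2 was above the floor in F2 alone on both arrays, with 5.25 and 5.04, and was at least 2.21-fold higher there. It too was in the test only through the line where it is high, so no p is given, and it was not tested without either F2 array, without the 3 arrays of 20 µg RNA or with the filter at 6. The lesion mimic gene lls1, needed in maize to hold back spreading cell death, was higher in F98902 by 1.23 log2 (limma adjusted p = 0.000432). A second lesion mimic gene, les22, was higher in F7033 by 0.85 log2 (limma adjusted p = 0.00467, and 0.0526 without the first F7033 array). It was lower in Cm484 at -0.60 log2 (limma adjusted p = 0.0275), a call lost without either Cm484 array (0.186 and 0.0956), without the first F7033 array (0.0542) and without the second F2 array (0.0526). The cysteine protease gene mir2 was higher in F7033 by 0.51 log2 (limma adjusted p = 0.00799, and 0.0891 without the first F7033 array). Its relative mir1, known in maize for resistance to caterpillars, stayed under 4 on all arrays, as did hm1, the Cochliobolus carbonum toxin reductase.

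An RNA quality measure moved with the lines. The cyclophilin control, as 3′ minus 5′ probe sets, stood at 1.01 and 1.02 log2 in F7025, 0.58 and 0.56 in F7033, 0.59 and 0.62 in F98902, 0.18 and 0.19 in F2, and 0.79 and 0.68 in Cm484. It was thus highest in F7025, where umi11, prp4, chn1 and wip1 had their highest line means, and lowest in F2, where chn1, pr5 and wip1 had their lowest. The actin control stayed between 0.19 and 0.40 log2 and the GAPDH control between -0.26 and -0.20 on all arrays, without such an order. The part of RNA quality in the results was not tested.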

How the data were processed

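Stem RNA of 5 maize lines, 2 pools of 5 plants each, was hybridised to 10 Affymetrix maize arrays. The deposited values are log2 expression per probe set, which per the submitters' processing notes the authors made with GCRMA. This method corrects background by probe sequence, normalizes between arrays and summarises probes, and it draws dim probe sets to a common floor. The log2 scale was read from the values (1.35 to 14.55), and no version or scanner setting was given in the sources used here. The series text speaks of an organ comparison, but all labels give stem.

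Of 17734 probe sets, 113 controls were left out, and 11067 with a log2 value of 4 or more on at least 2 arrays were tested. Precision is limited by having 2 arrays per line. Line was the only term in limma 3.58.1 (R 4.3.3; lmFit, then eBayes with a trend; 5 residual and 3.09 prior degrees of freedom), over all 10 arrays. The F-test and each contrast were adjusted by Benjamini-Hochberg over tested probe sets, with a threshold of 0.05. Contrasts set each line against the mean of the other 4, or lines in pairs, first minus second. The fit was tested on simulated data.

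The annotation named 1 gene for 1452 probe sets, of which 1377 were matched to the reference gene table (B73 assembly), and several for 1. It holds no descriptions, so the defence list was matched by symbol and synonym, and 7 names that belonged to other kinds of gene were left out. The probe set with the highest mean stood for a gene. Members and lists were chosen with earlier results of these data known. Genes named from the list were those called in F7025 and, in each other line, the 3 largest calls per direction, with 1 exception: aox2 has no size given where both sides lie under 4. Similar genes were the 5 with the highest Pearson r. A planned search of promoters for motifs was not run, because no sequence was used here. Replicate numbers were not taken as pairs: the difference between second and first arrays, over tested probe sets, correlated at -0.38 to 0.37 between lines, with the 3 highest values among the lines whose second arrays had 20 µg of RNA. Alternatives were array weights, other filters, a replicate block, omitted arrays and the dim lines set to 4. Scripts ran in Python 3.11.15 (pandas 2.3.3, matplotlib 3.10.9).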

Additional observations from a re-analysis of the deposited data

How the results depend on the processing

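The calls on umi11 against Cm484 passed under every setting tried, though each setting pools the spread over lines, dim ones included. With 2 arrays per line, 1 pool decided several calls on prp4 and chn1, as given above. Without the 3 arrays made from 20 µg of RNA, a fit that assumes the lone arrays of F98902, F2 and Cm484 vary like those of the other lines, the F-test called 4817 probe sets, the list 5 genes in F98902, 3 in F2 and 2 in Cm484, and 4 member pair differences passed. The share of all tested probe sets called fell with them, to 13.7% in Cm484, 19.5% in F2 and 19.4% in F98902, each against the mean of the others. Under that setting the list calls of mir2 in F7033, igl1 and les22 in Cm484, LOC606407 in F2 and tps6 in both lines did not pass, rip2 in F2 was not tested, and chn1 in F98902 minus Cm484 turned to -0.10 log2. With all arrays, counting every probe set gave 8 calls in Cm484 among 23 tested list probe sets, against 5 among 18 genes. That contrast called 36.9% of all tested probe sets.

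Leaving out each array in turn, the F-test called 6680 to 8443 probe sets, the list 7 to 9 genes in F7025, 5 to 11 in F7033, 7 to 8 in F98902, 3 to 11 in F2 and 3 to 8 in Cm484, and 4 to 7 member pair differences passed. The share of all tested probe sets called moved too: where the list fell to 3 in F2 it was 22.8%, against 43.2% with all arrays. Where the list fell to 5 in F7033 it was 23.1%, against 45.4%. Where it fell to 3 in Cm484 it was 18.8% and 20.6%, against 36.9%. Where it fell to 7 in F7025 it was 23.2% and 31.9%, against 37.4%, and aox2 was not tested. The main counts were 8176 probe sets, list totals of 9, 10, 8, 11 and 5 in the same order of lines, and 7. In these fits chn1 in F7033 minus F98902 ranged from -0.17 to 0.29 log2, being -0.09 without the first F7033 array, and prp4 in F2 minus Cm484 from -0.33 to 0.87 log2, being -0.09 without the second Cm484 array. Neither passed with all arrays. With array weights, prp4 in F98902 minus F2 and minus Cm484 did not pass (limma adjusted p = 0.0951 and 0.0735), and chn1 in F2 minus Cm484 did (0.0154). It also passed with the filter at 6 (0.0476), and prp4 in F98902 minus F2 did not without a filter (0.0549). The cause was not tested.

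The F7025 difference of umi11 from the mean of the others was 5.04 log2, and 4.00 with dim lines set to 4. Putting back the 7 names left out, an alternative chosen after seeing the data, gave 11, 11, 11, 13 and 6 calls among 23 tested genes. The same contrasts called 37.4%, 45.4%, 44%, 43.2% and 36.9% of all tested probe sets. Leaving out aox2 and rip2, also chosen after seeing the data, gave 8, 8, 7, 9 and 4 calls among 16 genes. Of the 10722 probe sets that reached 4 in more than 1 line, 16.8%, 22.1%, 20.3%, 25.5% and 18.6% were called higher. The shares called lower were 19.6%, 22.3%, 22.5%, 16.7% and 17.3%. The replicate block was fitted as an alternative, since the labels do not say whether the numbers pair the pools. Not every array correlated best with those of its own number, which does not settle the question. The differences between arrays did correlate positively among F98902, F2 and Cm484 (r = 0.37, 0.37 and 0.27), the 3 lines whose second arrays had 20 µg of RNA. With the replicate block the F-test called 8069 probe sets and the list 10, 10, 9, 10 and 7 of 18 genes. The same line contrasts called 37.3%, 45.3%, 43.9%, 43.2% and 36.8% of all tested probe sets. Again 7 member pair differences passed. For prp4, limma adjusted p was 0.00123 for F98902 minus F2 and 0.000572 for F98902 minus Cm484, where 40.2% and 37.2% of probe sets were called.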

Other observations

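Of the 24 other defence genes, 6 were too dim to be tested, among them hm1, whose highest array value was 3.50 log2, cc3 at 3.43, stc1 at 2.52 and mir1 at 2.04. The alternative oxidase gene aox3 reached 4.77 on 1 array only. The second probe set of cpi2 gave a larger F7025 difference, 3.11 log2, than the brighter one that stood for the gene.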
